A study of Homo sapiens with 15 samples.

Results

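DNA replication and S phase genes are described here in HepG2 cells exposed to chlorinated flame retardants. The 47 genes were given by name, by a rule that uses no measured value although earlier results of these data were known when the list was drawn up, and cover the steps from loading the replicative helicase to copying, sealing and repackaging DNA. All 47 were found among the 57773 genes listed for each library, and all 47 passed the filter on low counts that left 12567 genes to test. HepG2 is an established human hepatocellular carcinoma line, kept below 25 passages. Cultures received 25 or 250 µM of TCEP, which is tris(2-chloroethyl) phosphate, 2.5 or 25 µM of TCIPP, which is tris(2-chloroisopropyl) phosphate, or 0.1% of the solvent dimethyl sulfoxide (DMSO), each for 72 h. Both compounds are chlorinated organophosphate triesters, and each chloroalkyl arm of TCIPP carries a methyl group that the arms of TCEP lack. Each of the 5 groups had 3 libraries from cultures that were seeded, treated and extracted separately, per the labels' protocols. The sources used here do not say whether treated cultures also carried DMSO, or which cultures shared a day. A single tumour line stands for the liver, and a bulk library averages over cells in all phases of the cycle, so that fewer cells in S phase and less RNA per S phase cell cannot be told apart.

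Before S phase, CDC6 and CDT1 load the ring of MCM2 to MCM7 onto replication origins as an inactive helicase. CDC45, the GINS complex and MCM10 then switch it on, the polymerases copy the strands with PCNA as their sliding clamp, and RPA covers the single strands. Transcription of many of these genes follows the E2F factors that the cyclin E kinases release at the passage from G1 to S, which is why their RNA is widely read as a sign of how many cells of a culture are replicating. Adult hepatocytes rarely divide, whereas a hepatoma line in growth medium does so all the time.

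In the edgeR quasi-likelihood test over all 15 libraries, 0 of the 47 genes changed in any of the 8 comparisons, at an adjusted p under 0.05. The count was also 0 with DESeq2 and with limma-voom in the same design, and the counts at an unadjusted p under 0.05 stand with each comparison. Against DMSO, the log2 fold changes had a median of 0.12 with TCEP at 25 µM, 0.028 with TCEP at 250 µM, 0.024 with TCIPP at 2.5 µM and -0.053 with TCIPP at 25 µM. At the concentration that both compounds share, 25 µM, 40 of the 47 genes had lower estimates with TCIPP than with TCEP, with a median of -0.17. When libraries with the same replicate number were treated as pairs, MCM4 and MCM5 of the helicase and the chromatin factor UHRF1 fell in that comparison in a fit of all 15 libraries, in which 8.75% of all genes passed. In a fit of the 12 treated libraries alone, added after the data were seen, 9 genes fell, among them these 3 and the clamp PCNA, where 8.45% of all genes fell and 7.98% rose.

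RefSeq promoter windows (GRCh38.p14) were matched for 40 of the 47 genes, with 55 annotated starts. MCM4, MCM5, GINS4, RPA2, RPA3, POLD3 and CCNE2 were not among them. The 250 bases before each start were searched on both strands for the E2F-type forms TTTGGCGC and TTTCCCGC, together with TTTCGCGC and TTTGCCGC, and for CCAAT, the letters bound by NF-Y. Matches may overlap each other by end bases. An E2F-type form stood before 17 of the 55 starts (30.9%), against 979 of 35116 starts over all genes (2.79%). CCAAT stood before 29 of the 55 (52.7%), against 11240 of 35116 (32.01%). A match describes letters, not a bound site. The stretches below are those of the 6 matched genes with the smallest p against DMSO that hold either motif, and are shown because TK1, CDT1, RFC1 and UHRF1 carry the estimates discussed further on. UHRF1 has 3 annotated starts and TK1 has 2. For each, the start with the most E2F-type matches, then the most CCAAT matches, was chosen. A stretch shows the surroundings of 1 match, not the whole 250 bases. Capitals mark an E2F-type form in CDT1, UHRF1 and RFC3 and CCAAT, or its reverse complement, in TK1, UHRF1, RFC1 and PRIM1. They are read 5′ to 3′ on the gene's strand, from CDT1 at chr16:88803714-88803788 (plus strand), TK1 at chr17:78187054-78187138 (minus), UHRF1 at chr19:4909944-4910031 (plus), RFC1 at chr4:39366506-39366590 (minus), RFC3 at chr13:33818054-33818141 (plus) and PRIM1 at chr12:56752324-56752381 (minus).
CDT1: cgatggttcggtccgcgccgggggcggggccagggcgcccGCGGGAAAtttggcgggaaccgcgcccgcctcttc
TK1: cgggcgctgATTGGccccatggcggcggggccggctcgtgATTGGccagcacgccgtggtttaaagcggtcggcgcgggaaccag
UHRF1: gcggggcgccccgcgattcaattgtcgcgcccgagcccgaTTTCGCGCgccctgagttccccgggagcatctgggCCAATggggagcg
RFC1: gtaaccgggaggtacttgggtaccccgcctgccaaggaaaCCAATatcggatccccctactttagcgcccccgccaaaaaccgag
RFC3: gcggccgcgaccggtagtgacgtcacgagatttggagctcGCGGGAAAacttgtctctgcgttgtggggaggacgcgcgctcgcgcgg
PRIM1: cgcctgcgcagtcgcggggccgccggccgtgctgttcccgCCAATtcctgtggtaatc
Of these genes, CDT1 and RFC3 have an E2F-type form close to their start, and TK1 has a pair of CCAAT boxes in reverse orientation before the start chosen.

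Libraries held 5.35 to 26.8 megareads of exon reads, with a median of 8.89, and a count of 3 reads equals 0.112 to 0.560 CPM, a gene's exon reads scaled to a common library size of 1 megaread. Of the hepatocyte markers, 10 of 10 were above 1 CPM on average, with a summed level of 43169 to 54596 CPM per library. Of the 8 fibroblast and stellate markers, 2 were above 1 CPM on average, PDGFRB at 10.2 to 33.6 CPM and COL1A1 at a mean of 1.52, COL1A2, DCN, LUM and THY1 were at 0 reads in all 15 libraries, and the list summed to 12.7 to 34.2 CPM. The endothelial markers, 0 of 5 above 1 CPM, summed to 1.12 to 2.76 CPM. Of the 7 immune markers, 3 were above 1 CPM, LYZ, CD68 (mean 32.7) and CD14 (mean 1.75), with a sum of 4026 to 5399 CPM that was mostly LYZ, while PTPRC, the pan-leukocyte marker, was at 0.126 CPM in DMSO replicate 1 and at 0 reads elsewhere. Of the 5 cholangiocyte markers, 3 were above 1 CPM, SOX9 (mean 219), KRT19 (mean 172) and EPCAM (mean 167). CFTR was at 0 reads, and the sum was 515 to 598 CPM. Only 8.51% of the SOX9 reads, 5.39% of the CD68 reads and 62.0% of the LYZ reads were unique to 1 place, so these levels are uncertain.

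Per kilobase of annotated exon, the 47 genes spanned from 0.352 to 124 RPKM in DMSO, with a median of 5.45. RPKM is reads per kilobase of exon and per megaread, as deposited. Its library total is not the exon total used for CPM, so it is not CPM divided by exon length. PCNA was highest at 124 ± 20.7 RPKM (SD, n = 3), followed by MCM3 at 49.1 ± 6.66 and TYMS at 31.6 ± 2.39, and these 3 did not overlap in range with one another or with the next. CCNE2, cyclin E2, was lowest at 0.352 ± 0.0486 RPKM, below GINS4 at 0.747 ± 0.0774. Between them the levels formed a near-continuous order, in which 36 of 46 neighbouring pairs overlapped in their DMSO ranges. The subunits of one complex were not measured at one level: in the MCM2 to MCM7 ring, MCM3 stood at 49.1 ± 6.66, MCM7 at 19.2 ± 0.8899, MCM4 at 12.6 ± 0.293, MCM2 at 11.1 ± 0.118, MCM6 at 5.52 ± 0.3098 and MCM5 at 5.45 ± 0.435 RPKM. In the GINS complex, GINS2 stood at 4.45 ± 0.487, GINS1 at 4.01 ± 0.241, GINS3 at 1.897 ± 0.0156 and GINS4 at 0.747 ± 0.0774 RPKM. The exon length counts every annotated exon of a gene, so a gene with long, little-used exons reads low on this scale.

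**Figure D1:**
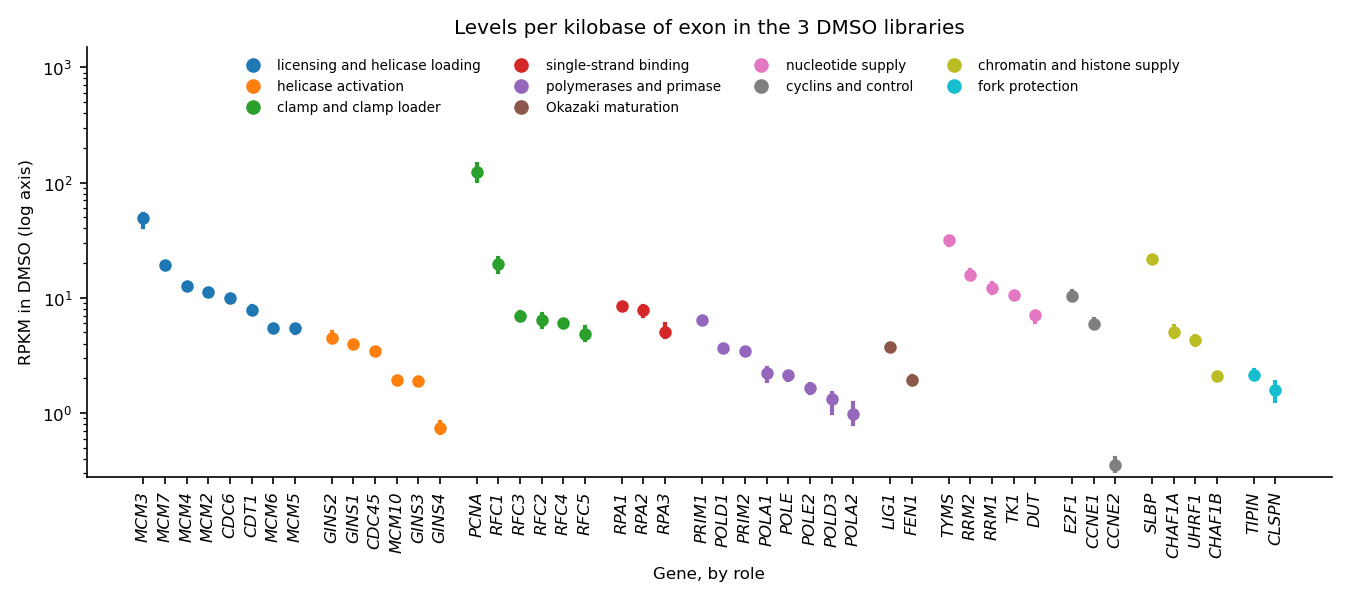
Levels of the 47 genes in the 3 DMSO libraries, in RPKM on a log axis, grouped and coloured by role. Points are means and bars run from the lowest to the highest library. PCNA lies at the top at 124 RPKM and CCNE2 at the bottom at 0.352, and 11 of 37 neighbouring pairs within a role overlap.

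The median coefficient of variation of the 47 genes between replicates was 8.19% in DMSO, 7.06% with TCEP at 25 µM, 9.76% with TCEP at 250 µM, 8.32% with TCIPP at 2.5 µM and 13.8% with TCIPP at 25 µM. Many of the genes moved together between replicate numbers. Measured as each gene's log2 CPM minus its DMSO mean, the median of the 47 genes was 0.18, 0.16, 0.083 and 0.14 in replicate 2 of TCEP 25 µM, TCEP 250 µM, TCIPP 2.5 µM and TCIPP 25 µM. It was the highest of the 3 libraries in each of those 4 groups. In replicates 1 and 3 the same median was 0.091 and 0.040 with TCEP at 25 µM, -0.035 and -0.077 with TCEP at 250 µM, -0.040 and 0.00040 with TCIPP at 2.5 µM, and -0.13 and -0.092 with TCIPP at 25 µM. Replicate 2 held the highest level of 25, 33, 26 and 35 of the 47 genes in those groups, against 35.7%, 38.0%, 36.7% and 34.6% of all genes tested. DMSO was the other way round, with medians of 0.028, -0.035 and 0.0088 in replicates 1, 2 and 3. Averaged over libraries (mean ± SD, n = 3), it came to 0.00055 ± 0.033 in DMSO, 0.10 ± 0.072 in TCEP 25 µM, 0.015 ± 0.13 in TCEP 250 µM, 0.015 ± 0.063 in TCIPP 2.5 µM and -0.030 ± 0.14 in TCIPP 25 µM. Apart from TCEP at 25 µM, every treated group mean lay within its own SD of 0. The share of gene reads that fell in introns was lowest with TCIPP at 2.5 µM (8.10 ± 0.490%) and TCEP at 25 µM (8.23 ± 0.306%), and higher with TCEP at 250 µM (8.50 ± 0.228%), DMSO (8.90 ± 0.211%) and TCIPP at 25 µM (8.998 ± 0.496%). Its part in the results was not tested.

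**Figure D2:**
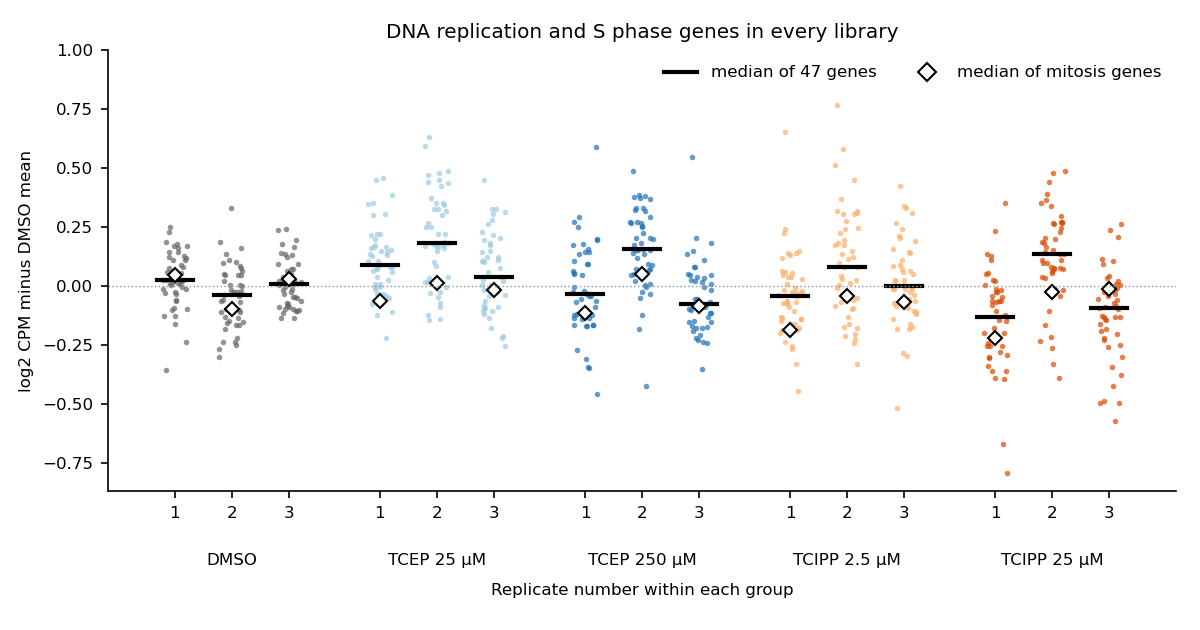
Log2 CPM of each of the 47 genes minus that gene's DMSO mean (vertical axis), for the 15 libraries by group and replicate number (horizontal axis). Points are genes, bars their median and diamonds the median of the mitosis genes. Replicate 2 has the highest bar in all 4 treated groups, from 0.083 to 0.18, and the lowest in DMSO, -0.035.

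The loading factors were measured as follows, with values in the order of replicates 1, 2 and 3. CDC6, the ATPase that brings the ring to the origin, was at 38.6, 38.9 and 34.4 CPM with DMSO, 37.1, 36.6 and 38.4 with TCEP at 25 µM, 42.1, 45.3 and 38.8 with TCEP at 250 µM, 33.3, 31.7 and 36.98 with TCIPP at 2.5 µM, and 36.7, 44.8 and 37.01 with TCIPP at 25 µM. TCEP at 250 µM held the highest library and lay above TCEP at 25 µM throughout, TCIPP at 2.5 µM held the lowest, and all 4 treated groups overlapped DMSO. CDT1, the partner of CDC6 that is destroyed once S phase begins, was at 28.1, 30.9 and 26.9 CPM with DMSO, 29.9, 26.5 and 31.03 with TCEP at 25 µM, 30.97, 33.2 and 29.9 with TCEP at 250 µM, 33.9, 36.3 and 34.2 with TCIPP at 2.5 µM, and 29.5, 34.4 and 31.5 with TCIPP at 25 µM. The 3 libraries of TCIPP at 2.5 µM lay above the 3 of DMSO, and those of the other groups overlapped DMSO. MCM2 was at 60.5, 59.1 and 59.9 CPM with DMSO, 66.8, 68.8 and 61.7 with TCEP at 25 µM, 63.6, 66.2 and 60.2 with TCEP at 250 µM, 65.5, 59.3 and 60.5 with TCIPP at 2.5 µM, and 56.8, 62.8 and 60.7 with TCIPP at 25 µM. All 3 TCEP 25 µM libraries were above all 3 DMSO libraries, by a small distance in replicate 3. MCM3 was at 210.2, 166 and 214 CPM with DMSO, 196, 183 and 165 with TCEP at 25 µM, 177, 193 and 167 with TCEP at 250 µM, 193, 164 and 162 with TCIPP at 2.5 µM, and 191, 193 and 173 with TCIPP at 25 µM. DMSO replicate 2 was low beside the other DMSO libraries, and every treated group overlapped DMSO. MCM4 was at 94.5, 92.8 and 96.9 CPM with DMSO, 104, 106 and 102 with TCEP at 25 µM, 88.3, 106 and 97.04 with TCEP at 250 µM, 90.7, 98.4 and 99.02 with TCIPP at 2.5 µM, and 81.6, 99.6 and 87.96 with TCIPP at 25 µM. The TCEP 25 µM libraries lay above all DMSO and all TCIPP 25 µM libraries, and the latter reached down to the lowest value of the 15. MCM5 was at 46.9, 44.9 and 39.9 CPM with DMSO, 50.2, 55.1 and 47.2 with TCEP at 25 µM, 41.8, 53.4 and 40.9 with TCEP at 250 µM, 44.98, 53.7 and 44.9 with TCIPP at 2.5 µM, and 34.5, 45.4 and 39.03 with TCIPP at 25 µM. It had the same order, with TCEP at 25 µM above DMSO and TCIPP at 25 µM without overlap. MCM6 ran from 21.9 to 31.8 CPM and MCM7 from 83.9 to 102 CPM over the 15 libraries, and of their treated groups only MCM6 with TCEP at 25 µM did not overlap DMSO (27.5, 27.6 and 28.4 against 25.2, 23.5 and 26.2 CPM).

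Genes that activate the helicase were read at lower levels. MCM10 was at 11.1, 11.1 and 12.3 CPM with DMSO, 13.4, 14.3 and 14.5 with TCEP at 25 µM, 10.7, 16.3 and 11.8 with TCEP at 250 µM, 11.8, 11.95 and 12.1 with TCIPP at 2.5 µM, and 8.87, 13.8 and 12.5 with TCIPP at 25 µM. The TCEP 25 µM libraries exceeded those of DMSO, while TCEP at 250 µM and TCIPP at 25 µM were highest in replicate 2 and overlapped DMSO. GINS1 was at 18.97, 19.2 and 17.1 CPM with DMSO, 18.01, 21.9 and 22.2 with TCEP at 25 µM, 19.4, 22.8 and 21.4 with TCEP at 250 µM, 13.5, 22.4 and 23.5 with TCIPP at 2.5 µM, and 16.5, 19.4 and 22.5 with TCIPP at 25 µM. TCEP at 250 µM lay above DMSO in all 3 libraries, and TCIPP at 2.5 µM held both the lowest and the highest library of the 15. GINS2 was at 15.1, 17.96 and 14.8 CPM with DMSO, 15.7, 15.4 and 14.5 with TCEP at 25 µM, 11.7, 18.1 and 14.2 with TCEP at 250 µM, 14.8, 13.4 and 16.8 with TCIPP at 2.5 µM, and 12.8, 13.4 and 14.6 with TCIPP at 25 µM. Here TCIPP at 25 µM lay below DMSO in all 3 libraries, although GINS2 overlaps GSE1, a more abundant gene (114 CPM on average). CDC45 ranged from 7.76 to 13.6 CPM, GINS3 from 6.25 to 9.96 CPM and GINS4 from 3.36 to 6.93 CPM over the 15 libraries. GINS3 was lower with TCEP at 25 µM and with TCIPP at 2.5 µM than with DMSO in every library, at 7.45 ± 0.168 and 7.36 ± 0.373 CPM against 7.88 ± 0.0471 (SD, n = 3). Of the GINS4 reads, 49.1% were unique to 1 place, so part may belong to a near-identical copy.

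PCNA, the clamp that tethers polymerases to DNA, was at 234, 166 and 201 CPM with DMSO, 222, 248 and 187 with TCEP at 25 µM, 194, 252 and 171 with TCEP at 250 µM, 205, 199 and 163 with TCIPP at 2.5 µM, and 166, 224 and 143 with TCIPP at 25 µM. Within each treated group, replicate 3 was the lowest, and every treated group overlapped DMSO. RFC1, the large subunit of the loader that opens the clamp, was at 148, 123 and 163 CPM with DMSO, 136, 129 and 142 with TCEP at 25 µM, 142, 133 and 147 with TCEP at 250 µM, 125, 119 and 130.0 with TCIPP at 2.5 µM, and 137, 128 and 151 with TCIPP at 25 µM. Replicate 2 was the lowest library in all 5 groups, and TCIPP at 2.5 µM was below DMSO replicates 1 and 3 but overlapped DMSO replicate 2. RFC3 was at 20.4, 22.3 and 23.5 CPM with DMSO, 27.1, 24.5 and 26.9 with TCEP at 25 µM, 18.5, 25.2 and 25.3 with TCEP at 250 µM, 20.1, 23.2 and 25.7 with TCIPP at 2.5 µM, and 21.3, 25.2 and 26.4 with TCIPP at 25 µM. In all libraries TCEP at 25 µM was above DMSO. RFC5 was at 20.1, 15.3 and 16.7 CPM with DMSO, 15.8, 17.1 and 16.2 with TCEP at 25 µM, 14.1, 17.6 and 15.7 with TCEP at 250 µM, 14.5, 15.5 and 16.02 with TCIPP at 2.5 µM, and 13.4, 19.1 and 13.05 with TCIPP at 25 µM. DMSO replicate 1 was the highest of the 15, and no group stood apart. RFC2 ranged from 13.3 to 20.2 CPM and RFC4 from 15.97 to 27.5 CPM. RFC4 overlaps the abundant gene EIF4A2 (485 CPM on average), and no source used here states that counting used strand, which leaves reads from such overlapping genes impossible to assign.

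RPA, the heterotrimer that coats single-stranded DNA, showed no treated group apart from DMSO. RPA1 was at 53.6, 48.03 and 51.2 CPM with DMSO, 53.8, 57.1 and 51.3 with TCEP at 25 µM, 45.9, 53.9 and 45.5 with TCEP at 250 µM, 45.96, 56.4 and 47.6 with TCIPP at 2.5 µM, and 48.5, 50.2 and 43.2 with TCIPP at 25 µM. The TCEP 25 µM libraries were above those of TCIPP at 25 µM. RPA2 was at 18.8, 15.5 and 17.4 CPM with DMSO, 16.8, 20.2 and 19.1 with TCEP at 25 µM, 19.3, 18.3 and 16.4 with TCEP at 250 µM, 13.6, 14.9 and 18.4 with TCIPP at 2.5 µM, and 15.6, 19.1 and 12.4 with TCIPP at 25 µM. TCIPP at 25 µM spread from the lowest value of the 15 in replicate 3 to a high one in replicate 2. RPA3, which lies across its antisense gene RPA3-AS1, was at 16.4, 16.1 and 20.9 CPM with DMSO, 21.9, 20.8 and 19.1 with TCEP at 25 µM, 20.4, 19.01 and 19.8 with TCEP at 250 µM, 18.4, 20.4 and 22.2 with TCIPP at 2.5 µM, and 16.8, 15.1 and 20.8 with TCIPP at 25 µM. DMSO replicates 1 and 2 were low and replicate 3 high, and every treated group overlapped them.

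Of the polymerase and primase genes, 4 stood out by the rule for naming them. PRIM1, the catalytic primase subunit, was at 17.2, 18.2 and 16.3 CPM with DMSO, 20.1, 19.01 and 21.5 with TCEP at 25 µM, 17.3, 22.6 and 16.1 with TCEP at 250 µM, 19.1, 20.1 and 19.2 with TCIPP at 2.5 µM, and 14.4, 19.8 and 15.97 with TCIPP at 25 µM. Both TCEP at 25 µM and TCIPP at 2.5 µM were above DMSO in every library, although PRIM1 overlaps NACA, a far more abundant gene (641 CPM). POLD1, the catalytic subunit of DNA polymerase delta, was at 20.6, 19.6 and 19.03 CPM with DMSO, 21.5, 19.1 and 19.2 with TCEP at 25 µM, 18.2, 17.5 and 18.8 with TCEP at 250 µM, 20.7, 21.99 and 20.8 with TCIPP at 2.5 µM, and 19.98, 20.2 and 17.2 with TCIPP at 25 µM. It was below DMSO in all TCEP 250 µM libraries and above DMSO in all TCIPP 2.5 µM libraries. POLD3, an accessory subunit of the same polymerase, was at 6.07, 9.11 and 8.86 CPM with DMSO, 10.3, 11.8 and 9.302 with TCEP at 25 µM, 8.29, 10.4 and 8.63 with TCEP at 250 µM, 7.73, 10.6 and 10.05 with TCIPP at 2.5 µM, and 5.95, 11.02 and 8.66 with TCIPP at 25 µM. Levels with TCEP at 25 µM were above DMSO, and TCIPP at 25 µM held both a low and a high library. POLE, the catalytic subunit of polymerase epsilon, was at 35.7, 41.8 and 38.4 CPM with DMSO, 37.4, 34.4 and 33.2 with TCEP at 25 µM, 34.8, 38.2 and 34.6 with TCEP at 250 µM, 41.9, 41.9 and 38.9 with TCIPP at 2.5 µM, and 42.2, 40.5 and 32.96 with TCIPP at 25 µM. All groups overlapped. POLA1 ranged from 11.6 to 18.4 CPM, POLA2 from 5.06 to 7.74 CPM, PRIM2 from 14.3 to 21.1 CPM and POLE2 from 3.26 to 7.47 CPM. For POLE2, TCIPP at 25 µM held both the lowest and the highest of the 15 libraries, at 3.26, 7.47 and 5.17 CPM in replicates 1, 2 and 3.

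LIG1, the ligase that seals Okazaki fragments, was at 26.8, 28.6 and 25.2 CPM with DMSO, 27.5, 26.7 and 26.2 with TCEP at 25 µM, 24.7, 27.9 and 23.2 with TCEP at 250 µM, 25.6, 26.4 and 25.8 with TCIPP at 2.5 µM, and 21.9995, 28.6 and 24.97 with TCIPP at 25 µM. Every treated group overlapped DMSO. FEN1, the flap nuclease that precedes it, ranged from 3.62 to 8.29 CPM, with 39.8% unique reads and overlapping genes FADS2 and TMEM258, so its values are uncertain.

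The nucleotide genes were among the more abundant. RRM1, the large subunit of ribonucleotide reductase, was at 55.9, 50.02 and 61.2 CPM with DMSO, 58.7, 62.1 and 64.3 with TCEP at 25 µM, 53.9, 64.4 and 53.9 with TCEP at 250 µM, 49.6, 51.1 and 51.995 with TCIPP at 2.5 µM, and 46.7, 58.1 and 56.8 with TCIPP at 25 µM. TCIPP at 2.5 µM was the tightest group, and TCEP at 25 µM lay above TCIPP at 25 µM without overlap. RRM2, the cell-cycle-regulated small subunit, was at 94.7, 79.6 and 85.5 CPM with DMSO, 91.7, 118 and 96.1 with TCEP at 25 µM, 79.7, 113 and 86.2 with TCEP at 250 µM, 78.4, 106 and 96.03 with TCIPP at 2.5 µM, and 74.1, 117 and 83.7 with TCIPP at 25 µM. Replicate 2 was the highest in each of the 4 treated groups and the lowest in DMSO. TYMS, thymidylate synthase, was at 91.6, 78.6 and 86.7 CPM with DMSO, 91.96, 93.5 and 82.02 with TCEP at 25 µM, 84.8, 98.8 and 80.5 with TCEP at 250 µM, 83.2, 92.1 and 81.2 with TCIPP at 2.5 µM, and 80.5, 90.96 and 81.3 with TCIPP at 25 µM. It was likewise highest in replicate 2 of each treated group, and 64.4% of its reads were unique. TK1, thymidine kinase of the salvage pathway, was at 21.4, 22.7 and 21.2 CPM with DMSO, 21.1, 19.7 and 19.3 with TCEP at 25 µM, 19.7, 16.3 and 17.2 with TCEP at 250 µM, 19.1, 21.99 and 19.5 with TCIPP at 2.5 µM, and 17.5, 17.2 and 19.8 with TCIPP at 25 µM. TCEP at 25 µM, TCEP at 250 µM and TCIPP at 25 µM each lay below DMSO in all libraries, and its replicate 2 was the lowest library in 2 of those 3 groups. DUT, the dUTPase that keeps uracil out of DNA, was at 25.2, 30.4 and 29.9 CPM with DMSO, 29.6, 34.5 and 32.2 with TCEP at 25 µM, 29.9, 31.5 and 31.5 with TCEP at 250 µM, 27.8, 26.7 and 33.2 with TCIPP at 2.5 µM, and 24.6, 27.5 and 29.4 with TCIPP at 25 µM. TCIPP at 25 µM lay below TCEP at 25 µM in all libraries, and both overlapped DMSO.

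Among the regulators, E2F1 was at 31.7, 27.8 and 26.6 CPM with DMSO, 30.8, 28.6 and 26.8 with TCEP at 25 µM, 33.4, 28.96 and 29.1 with TCEP at 250 µM, 28.3, 24.9 and 25.5 with TCIPP at 2.5 µM, and 29.6, 26.5 and 26.4 with TCIPP at 25 µM. CCNE1, cyclin E1, was at 18.6, 15.6 and 15.9 CPM with DMSO, 18.8, 21.3 and 14.4 with TCEP at 25 µM, 20.1, 20.2 and 15.7 with TCEP at 250 µM, 16.7, 18.7 and 15.7 with TCIPP at 2.5 µM, and 16.1, 19.99 and 16.4 with TCIPP at 25 µM. Neither had a treated group apart from DMSO. CCNE2, cyclin E2, was at 1.52, 1.62 and 1.96 CPM with DMSO, 1.42, 2.32 and 2.17 with TCEP at 25 µM, 1.63, 2.26 and 2.57 with TCEP at 250 µM, 1.41, 2.95 and 2.35 with TCIPP at 2.5 µM, and 0.898, 1.87 and 1.69 with TCIPP at 25 µM. Its counts were the lowest of the 47 genes, from 8 reads upward, and TCIPP at 25 µM replicate 1 was the lowest library. CCNE2 overlaps INTS8 and NDUFAF6, more abundant genes (30.5 and 13.2 CPM on average).

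UHRF1, which carries DNA methylation across the replication fork, was at 26.3, 22.1 and 24.6 CPM with DMSO, 31.002, 37.1 and 30.4 with TCEP at 25 µM, 27.8, 31.98 and 23.1 with TCEP at 250 µM, 28.4, 29.5 and 29.5 with TCIPP at 2.5 µM, and 20.2, 31.2 and 20.02 with TCIPP at 25 µM. TCEP at 25 µM and TCIPP at 2.5 µM lay above DMSO in all libraries, whereas with TCIPP at 25 µM replicates 1 and 3 were below DMSO and replicate 2 was above it. Of its reads, 69.9% were unique. CHAF1B, a subunit of the chromatin assembly factor that deposits histones behind the fork, was at 12.6, 11.6 and 10.9 CPM with DMSO, 14.9, 12.9 and 16.1 with TCEP at 25 µM, 10.9, 14.8 and 12.2 with TCEP at 250 µM, 11.9, 17.3 and 13.2 with TCIPP at 2.5 µM, and 11.7, 14.8 and 11.1 with TCIPP at 25 µM. Its TCEP 25 µM libraries were all above DMSO, although CHAF1B overlaps MORC3, a more abundant gene (45.2 CPM on average). CHAF1A, the large subunit, ranged from 18.7 to 27.1 CPM, and SLBP, which binds the stem-loop of histone mRNAs, from 43.2 to 53.9 CPM. At the fork itself, TIPIN of the fork protection complex was at 6.32, 7.11 and 6.11 CPM with DMSO, 6.92, 9.06 and 7.605 with TCEP at 25 µM, 8.01, 7.69 and 6.24 with TCEP at 250 µM, 6.47, 6.94 and 6.499 with TCIPP at 2.5 µM, and 5.4999, 7.28 and 4.39 with TCIPP at 25 µM. Replicate 2 of TCEP at 25 µM was the highest and TCIPP at 25 µM replicate 3 the lowest. CLSPN, claspin, which relays checkpoint signals, was at 9.61, 7.61 and 11.01 CPM with DMSO, 10.4, 12.5 and 10.7 with TCEP at 25 µM, 10.2, 9.05 and 9.06 with TCEP at 250 µM, 10.3, 7.23 and 9.301 with TCIPP at 2.5 µM, and 9.09, 11.02 and 9.11 with TCIPP at 25 µM. TCEP at 25 µM was above TCEP at 250 µM in all libraries, and both overlapped DMSO.

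**Figure D3:**
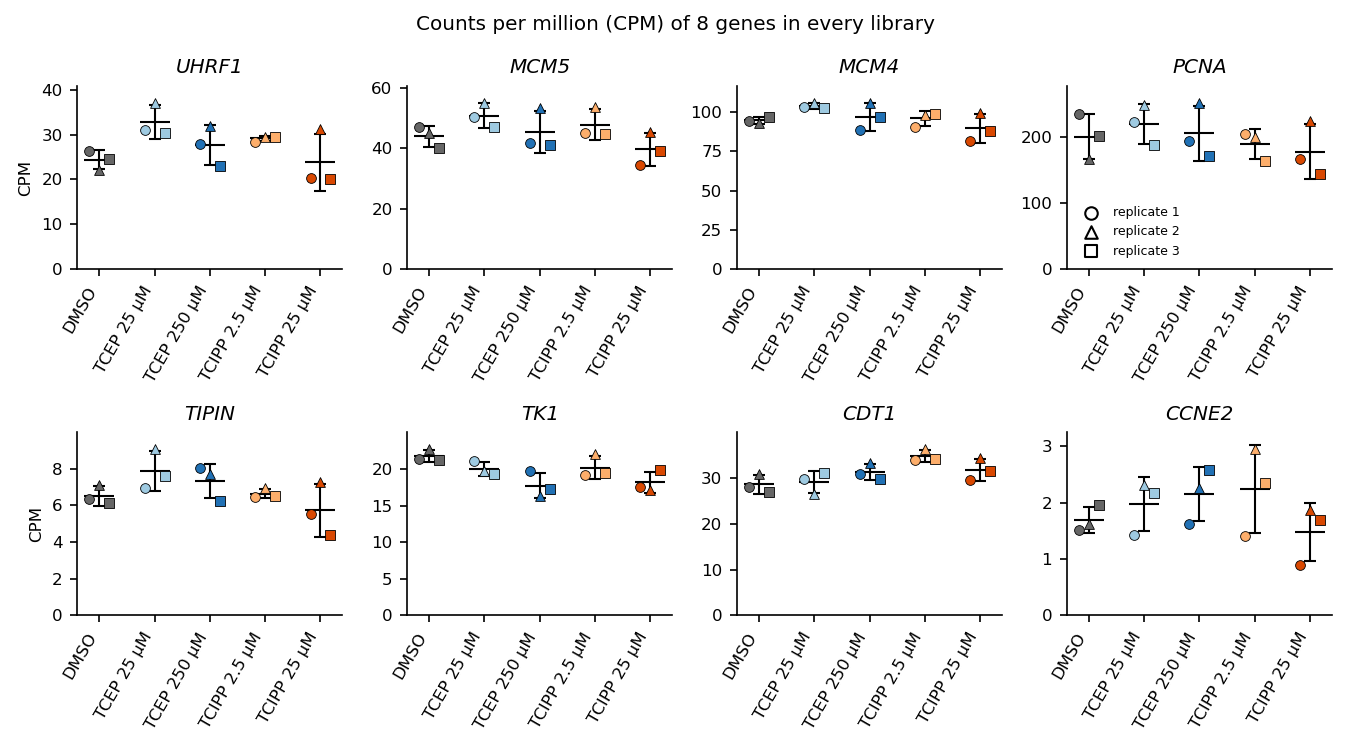
CPM (vertical axes, starting at 0) of 8 of the genes in the 3 libraries of each group, with marker shapes for replicates 1, 2 and 3 and bars for the mean ± SD. UHRF1 and MCM5 with TCIPP at 25 µM have 1 high library, replicate 2 at 31.2 and 45.4 CPM, and TK1 is below every DMSO library with TCEP at 250 µM and TCIPP at 25 µM.

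TCEP at 25 µM against DMSO asks what the lower concentration of that compound did. Most of the 47 genes had slightly higher estimates: 40 were above 0 (85.1%, against 50.1% of all genes tested) and the median log2 fold change was 0.12, against 0.00045 over all genes. None changed in the test (0 of 12567 genes passed, 0%). UHRF1 had the largest estimate, 1.35 times the DMSO level (log2 fold change 0.43 ± 0.15, adjusted p = 0.188, with ± the SE here and below). By p it was followed by CHAF1B (0.35 ± 0.15, adjusted p = 0.285), RFC3 (0.24 ± 0.12, adjusted p = 0.341), MCM2 (0.14 ± 0.071, adjusted p = 0.359), PRIM1 (0.25 ± 0.12, adjusted p = 0.364), MCM10 (0.28 ± 0.15, adjusted p = 0.382), POLD3 (0.36 ± 0.19, adjusted p = 0.387) and MCM5 (0.22 ± 0.12, adjusted p = 0.392). All 10 roles had a positive median, from 0.11 for licensing and helicase loading to 0.25 for fork protection. In 10 genes the TCEP libraries lay wholly above DMSO (10.9% of all genes did so) and in 2, GINS3 and TK1, wholly below (11.7%). An unadjusted p under 0.05 was reached by UHRF1 and CHAF1B, 2 higher genes (7.42% of all genes), and by 0 lower ones (7.81%). The 95% confidence intervals of 39 genes lay within 1.5-fold in either direction, so that larger changes of those genes fall outside the intervals. The other genes of the pathway were at a median of 0.0085 over 69 tested, 0 of which passed. Those with the smallest p were lower: DTYMK, a thymidylate kinase, at -0.39, adjusted p = 0.1601, CHTF18 of an alternative clamp loader at -0.62, adjusted p = 0.1796, CTPS1, a CTP synthase, at -0.34, adjusted p = 0.184 and TFDP1, the partner of E2F factors, at -0.24, adjusted p = 0.205. Among 58 mitosis genes, 0 passed and 24 were above 0, with PLK1, CDC20 and KIF20A at log2 fold changes of -0.25, -0.27 and -0.23.

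TCEP at 250 µM against DMSO asks the same of the higher concentration, with the same control libraries. Of the 47 genes 32 were above 0 and the median was 0.028, against 0.0017 over all genes. This median was -0.034 without TCEP 250 µM replicate 2 and -0.000766 without DMSO replicate 2. None changed (0 of 12567 genes, 0%). TK1 had the smallest p (-0.31 ± 0.096, adjusted p = 0.803), with all treated libraries below DMSO. CDC6 (0.16 ± 0.092, adjusted p = 0.987), MCM3 (-0.16 ± 0.10, adjusted p = 0.987), CDT1 (0.12 ± 0.087, adjusted p = 0.987), POLE (-0.13 ± 0.097, adjusted p = 0.987), POLD1 (-0.12 ± 0.093, adjusted p = 0.987), GINS1 (0.20 ± 0.16, adjusted p = 0.987) and LIG1 (-0.11 ± 0.097, adjusted p = 0.987) came next. TK1 was also the only one of the 47 with an unadjusted p under 0.05, which 2.81% of all genes reached in the lower direction. In GINS1 and RFC4 the libraries lay wholly above DMSO (6.77% of all genes), and in POLD1 and TK1 wholly below (4.44%). The intervals of 44 genes lay within 1.5-fold. Of the other pathway genes, 0 of 69 passed, and E2F2 (-0.66, adjusted p = 0.757), RECQL4 (-0.33, adjusted p = 0.955), CDKN1A (-0.16, adjusted p = 0.958) and RNASEH2B (0.23, adjusted p = 0.978) had the smallest p. Among 58 mitosis genes, 0 passed and 15 were above 0, with KIF20A, KIF23 and CENPE at -0.28, -0.20 and -0.53.

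TCIPP at 2.5 µM against DMSO split the 47 genes, 26 above 0 and 21 below, with a median of 0.024 against -0.0040 over all genes, and of -0.0036 without TCIPP 2.5 µM replicate 2. None changed, in a comparison in which 12 of 12567 genes did (0.0955%). CDT1 was 1.22 times the DMSO level (0.29 ± 0.086, adjusted p = 0.136), and RFC1 was lower (-0.21 ± 0.088, adjusted p = 0.2903). MCM3 (-0.19 ± 0.10, adjusted p = 0.456), CHAF1B (0.27 ± 0.15, adjusted p = 0.4601), UHRF1 (0.26 ± 0.15, adjusted p = 0.4601), RPA3 (0.18 ± 0.12, adjusted p = 0.564), PRIM1 (0.18 ± 0.13, adjusted p = 0.573) and RRM1 (-0.13 ± 0.097, adjusted p = 0.606) followed. Leaving out DMSO replicate 2, in which RFC1 is low, RFC1 fell by 0.32 on the log2 scale (adjusted p = 0.0382). In that fit 307 of all genes passed. By role, the clamp and its loader had a median of -0.10 and the polymerases and primase one of 0.076, with 7 of 8 genes above 0. CDT1, PRIM1, POLD1 and UHRF1 lay wholly above DMSO (8.58% of all genes) and GINS3 wholly below (8.22%). An unadjusted p under 0.05 was reached by CDT1 upward (7.81% of all genes) and RFC1 downward (6.06%). The intervals of 43 genes lay within 1.5-fold. Of the other pathway genes, 0 of 69 passed and 47 were below 0, among them ORC2 of the origin recognition complex (-0.25, adjusted p = 0.133), CTPS1 (-0.39, adjusted p = 0.1395), GMNN, the inhibitor of CDT1 known as geminin (-0.24, adjusted p = 0.155), and SAMHD1 (-0.26, adjusted p = 0.191). Among 58 mitosis genes, 0 passed and 51 were below 0, with a median of -0.12, and CKS2, BIRC5 and FOXM1 had the smallest p, at -0.34, -0.20 and -0.24.

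TCIPP at 25 µM against DMSO gave 35 of 47 estimates below 0, with a median of -0.053 against -0.0024 over all genes. None changed, and 1 of 12567 genes did (0.00796%). TK1 again had the smallest p (-0.26 ± 0.098, adjusted p = 0.661), and CDT1 was again above DMSO (0.15 ± 0.089, adjusted p = 0.8598). RFC5 (-0.23 ± 0.14, adjusted p = 0.874), GINS2 (-0.22 ± 0.14, adjusted p = 0.874), MCM5 (-0.16 ± 0.13, adjusted p = 0.922), TIPIN (-0.22 ± 0.19, adjusted p = 0.9302), RPA1 (-0.12 ± 0.10, adjusted p = 0.932) and RPA2 (-0.17 ± 0.15, adjusted p = 0.932) followed, all below DMSO. The replicates did not lie on one side of DMSO, with medians of 0.14 in replicate 2 and of -0.13 and -0.092 in replicates 1 and 3. In 0 genes were the libraries wholly above DMSO (4.97% of all genes), and GINS2 and TK1 were wholly below (4.23%). TK1 was the 1 gene with an unadjusted p under 0.05 (2.95% of all genes downward), and 0 reached it upward (3.41%). The intervals of 42 genes lay within 1.5-fold. Of the other pathway genes, 0 of 69 passed and 52 were below 0, with GMNN (-0.24, adjusted p = 0.575), E2F2 (-0.53, adjusted p = 0.661), CDKN1A (-0.19, adjusted p = 0.671) and RNASEH2A (-0.32, adjusted p = 0.799) first by p. Of 58 mitosis genes, 0 passed and 47 were below 0, and KIF20B, NCAPD2 and CENPE had the smallest p, at -0.51, 0.17 and -0.67. The 4 comparisons above share the DMSO libraries, so that a low or high DMSO library moves all 4 at once.

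**Figure D4:**
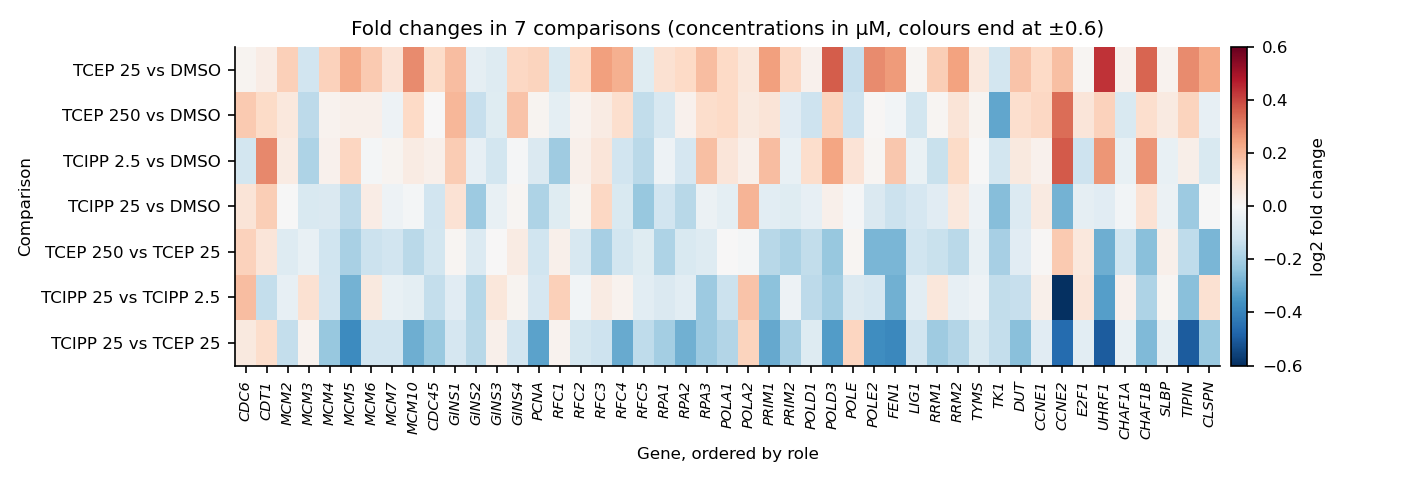
Log2 fold changes of the 47 genes (columns, by role) in 7 comparisons (rows), with colours that end at 0.6 in either direction. The row of TCEP 25 µM against DMSO is mostly above 0 (40 genes), and the row of TCIPP 25 µM against TCEP 25 µM mostly below (40 genes). Rows that share a group of libraries are not independent.

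The higher against the lower concentration of TCEP asks what a 10-fold step added. The genes were mostly lower at 250 µM, 35 of 47, with a median of -0.11 against 0.0013 over all genes. The cyclins and E2F1 had a median of 0.063, with 3 of 3 above 0. The other roles had medians from -0.21 for fork protection to -0.040 for helicase activation. The 5 nucleotide genes, all below 0 with a median of -0.13, lay within that range. None changed (0 of 12567 genes, 0%). TK1 (-0.20 ± 0.096, adjusted p = 0.695), UHRF1 (-0.29 ± 0.15, adjusted p = 0.696), RPA1 (-0.19 ± 0.099, adjusted p = 0.705), CLSPN (-0.27 ± 0.15, adjusted p = 0.716) and RFC3 (-0.20 ± 0.12, adjusted p = 0.753) had the smallest p. CDC6 was wholly higher (9.31% of all genes) and POLD1 and CLSPN wholly lower (6.17%). An unadjusted p under 0.05 was reached by 0 genes (3.33% of all genes upward and 3.83% downward). Libraries with the same replicate number moved together across the treated groups, and with that number as a block in the 12 treated libraries 0 of 47 passed as well, while 556 of 12688 genes did (4.38%), 1.94% upward and 2.44% downward. The smallest adjusted p was then that of MCM5 (0.0837), and without TCEP 25 µM replicate 2 CHAF1B fell by 0.44 (adjusted p = 0.0461). In the fit without that library 301 of all genes passed. The intervals of 41 genes in the fit without pairs lay within 1.5-fold. SAMHD1 (0.31, adjusted p = 0.545), E2F2 (-0.48, adjusted p = 0.67999), E2F5 (0.29, adjusted p = 0.695) and ASF1B (-0.26, adjusted p = 0.696) led the 69 other pathway genes, 0 of which passed. Of 58 mitosis genes, 0 passed and 36 were below 0, and PLK1, KIF23 and DLGAP5 had the smallest p, at 0.17, -0.20 and -0.24.

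For TCIPP, the 10-fold step gave 32 of 47 estimates below 0, with a median of -0.062 against -0.0015 over all genes. None changed without pairs (0 of 12567 genes, 0%). MCM5 (-0.28 ± 0.13, adjusted p = 0.426), UHRF1 (-0.33 ± 0.16, adjusted p = 0.457), CDC6 (0.19 ± 0.095, adjusted p = 0.504), CCNE2 (-0.65 ± 0.34, adjusted p = 0.518) and PRIM1 (-0.25 ± 0.13, adjusted p = 0.533) had the smallest p, and MCM5 and UHRF1 had an unadjusted p under 0.05 (5.78% of all genes downward), while 0 genes reached it upward (5.03%). The estimate of CCNE2, 1.57-fold lower, rests on few reads of a gene that overlaps more abundant ones, and its interval runs from -1.37 to 0.067. With replicate number as a block 0 of the 47 genes passed in all 15 libraries (3.85% of 12567 genes did). In the 12 treated libraries alone, a fit added after the data were seen, MCM5 fell by 0.28 (adjusted p = 0.0130) and UHRF1 fell by 0.37 (adjusted p = 0.0352), where 4.21% of all genes fell, and RFC1 rose by 0.15 (adjusted p = 0.0469), where 3.26% rose. These calls did not all last when 1 of the 6 libraries was left out: MCM5 passed in 4 of 6 such fits, UHRF1 in 2 and RFC1 in 0. The count of genes was 0 without TCIPP 2.5 µM replicate 3 or TCIPP 25 µM replicate 1, 1 without TCIPP 2.5 µM replicate 1 or TCIPP 25 µM replicate 3, and 2 without replicate 2 of either group. POLD1 alone was wholly lower (6.64% of all genes) and 0 genes were wholly higher (6.16%). Replicate 2 went against the others, with a median paired difference of 0.061 and 29 of 47 genes higher at 25 µM, against -0.10 and -0.12 in pairs 1 and 3. The intervals of 41 genes in the fit without pairs lay within 1.5-fold. Among 69 other pathway genes, of which 0 passed, CTPS1 (0.37, adjusted p = 0.276), MCMBP (-0.19, adjusted p = 0.354), TK2 (-0.35, adjusted p = 0.361) and E2F5 (0.36, adjusted p = 0.373) came first. Of 58 mitosis genes, 0 passed and 32 were above 0, with FOXM1, PLK1 and CDC20 at 0.24, 0.18 and 0.24.

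TCIPP against TCEP at 25 µM compares the related compounds at the 1 concentration they share, which was the only pair compared at a matched dose. Most of the 47 genes had lower estimates with TCIPP: 40 were below 0 (85.1%, against 50.5% of all genes) and the median was -0.17, against -0.0022 over all genes. Without pairs, 0 of the 47 passed, and 5 of 12567 genes did (0.0398%). UHRF1 had the largest estimate, 0.707 times the TCEP level (-0.50 ± 0.15, adjusted p = 0.122). MCM5 (-0.38 ± 0.12, adjusted p = 0.135), MCM4 (-0.23 ± 0.081, adjusted p = 0.162), TIPIN (-0.50 ± 0.18, adjusted p = 0.165) and DUT (-0.25 ± 0.10, adjusted p = 0.203) followed, and 7 genes had an unadjusted p under 0.05, all lower (8.94% of all genes downward, 9.19% upward), the others being PRIM1 and RRM1. MCM4, MCM5, RPA1, RRM1 and DUT lay wholly below the TCEP libraries, 5 genes (9.11% of all genes), and 0 lay wholly above (11.0%).

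With replicate number as a block in all 15 libraries, MCM4, MCM5 and UHRF1 passed, 3 of the 47, all lower (8.75% of 12567 genes passed in either direction). The 12 treated libraries alone met the criterion for pairing, a correlation above 0.1 between all same-numbered libraries. Same-numbered DMSO libraries also correlated above 0 with them, at 0.0164 to 0.158. In a fit of those 12 libraries, 9 of the 47 genes fell and 0 rose, against 8.45% and 7.98% of 12688 genes. The values that follow are from that fit, which was added after the data were seen. MCM5 fell by 0.38 (SE 0.065, adjusted p = 0.000978), PCNA fell by 0.33 (SE 0.064, adjusted p = 0.00221), UHRF1 fell by 0.51 (SE 0.10, adjusted p = 0.00272) and MCM4 fell by 0.23 (SE 0.054, adjusted p = 0.00795). RRM1 (-0.21, adjusted p = 0.0364), RPA1 (-0.20, 0.0372), DUT (-0.25, 0.0436), TIPIN (-0.50, 0.0439) and RRM2 (-0.18, 0.0462) passed closer to the threshold. By role, MCM4 and MCM5 belong to the helicase, PCNA is the clamp, RPA1 binds single strands, RRM1, RRM2 and DUT serve the nucleotide supply, UHRF1 acts on chromatin and TIPIN in fork protection. Leaving out each of the 6 libraries in turn, 3 to 7 of the 47 genes passed. MCM5, PCNA and UHRF1 passed in 6 of 6 fits and MCM4 in 5. RRM1 passed in 2, and DUT, TIPIN, RPA1 and RRM2 in 1 each. CHAF1B, PRIM1 and RFC4, which are not among the 9, also passed in 1 each. The count was 3 without TCEP 25 µM replicate 1 and 7 without replicate 2 of either group. It was 5 without TCEP 25 µM replicate 3, TCIPP 25 µM replicate 1 or TCIPP 25 µM replicate 3. With unique reads alone the estimate of UHRF1 was -0.40 (adjusted p = 0.00357). Within pairs 1, 2 and 3, the differences of log2 CPM were -0.61, -0.27 and -0.61 for UHRF1. For MCM5 they were -0.54, -0.29 and -0.29, for PCNA -0.42, -0.16 and -0.41 and for MCM4 -0.34, -0.10 and -0.24. In all, 21 of the 47 genes were lower with TCIPP in 3 of 3 pairs, as were 23.9% of all genes, and 0 were higher in 3 of 3, as were 23.4% of all genes. The median difference was -0.26 in pair 1, -0.10 in pair 2 and -0.12 in pair 3.

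The genes above 0 in this comparison were CDC6, CDT1, MCM3, GINS3, RFC1, POLA2 and POLE, with log2 fold changes of 0.059, 0.10, 0.023, 0.033, 0.021, 0.13 and 0.13, none of which passed. The intervals of 35 genes in the fit without pairs lay within 1.5-fold in either direction, so for most genes a larger difference between the compounds at this concentration falls outside the interval. All 10 roles had a median below 0, from -0.066 for the cyclins and E2F1 to -0.36 for fork protection. The TCEP 25 µM libraries also serve in the comparison with DMSO, so that the higher estimates there and the lower ones here are not independent. Against DMSO the medians were 0.12 for TCEP and -0.053 for TCIPP at this concentration. Intron reads were 8.23 ± 0.306% of gene reads with TCEP and 8.998 ± 0.496% with TCIPP, and mitochondrial genes took 6.15 ± 0.341% and 7.03 ± 0.293% of exon reads. Their part in the result was not tested. Among the 69 other pathway genes 0 passed without pairs and 43 were below 0. Of those with the smallest p, BRCA1 (-0.54, adjusted p = 0.154) had a lower estimate and CTPS1 (0.32, adjusted p = 0.167) a higher one. Of 58 mitosis genes, 0 passed and 36 were below 0, but PLK1 and CDC20 were higher, at 0.32 and 0.33, and DLGAP5 lower, at -0.40.

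**Figure D5:**
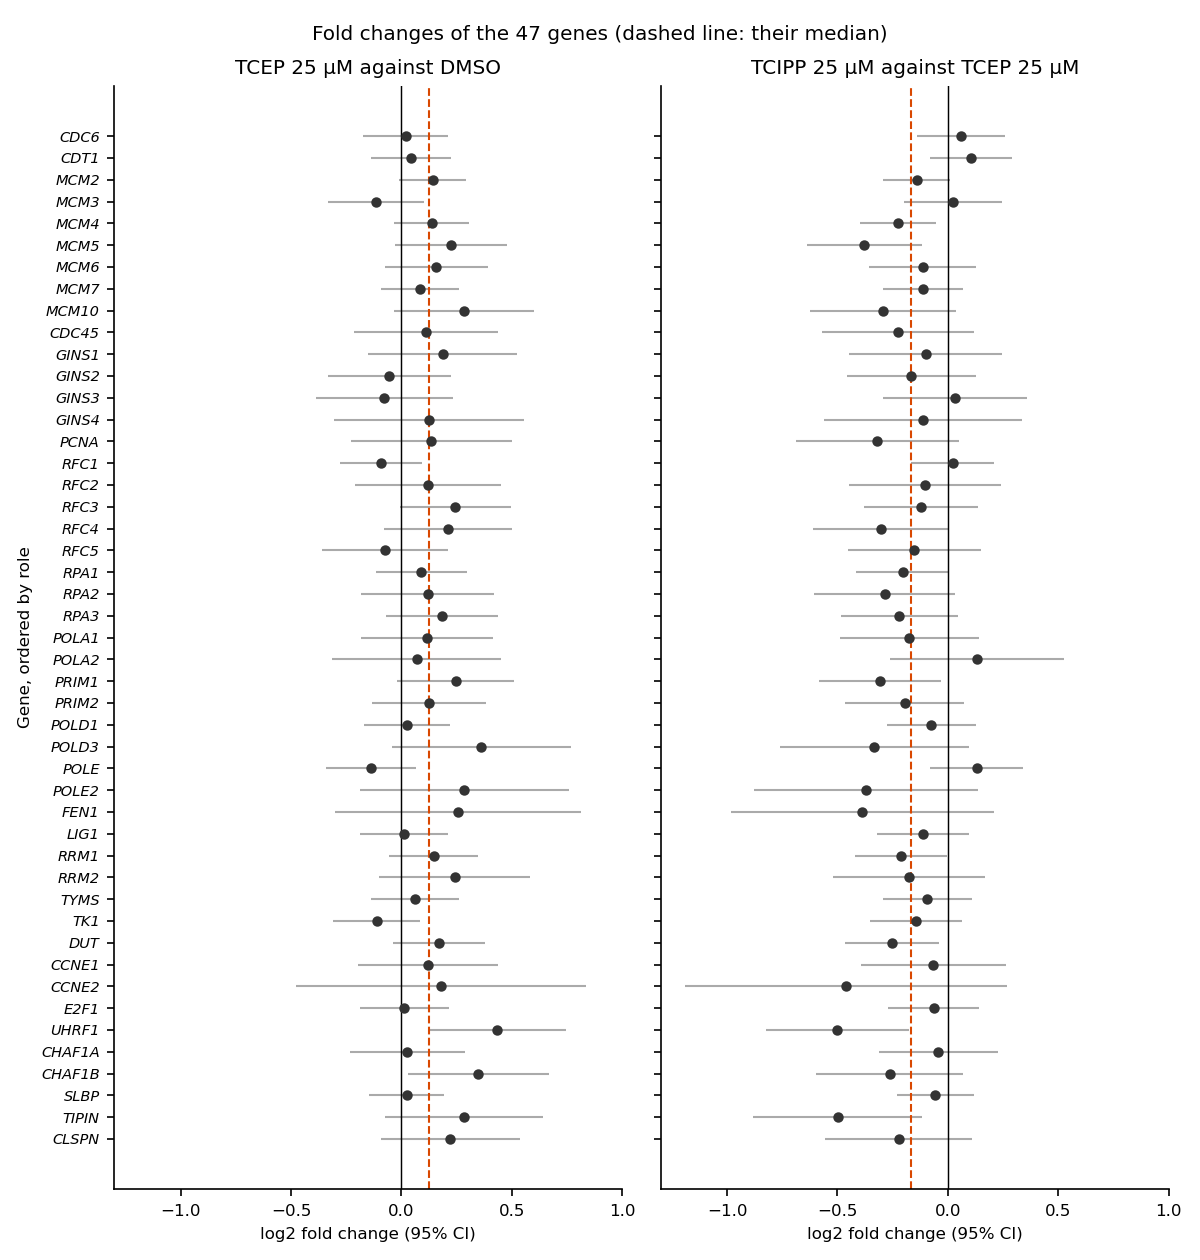
Log2 fold changes (points) with 95% confidence intervals (bars) of the 47 genes, by role, from the fit without pairs, for TCEP at 25 µM against DMSO (left) and TCIPP at 25 µM against TCEP at 25 µM (right). The dashed lines mark the medians, 0.12 and -0.17. Most bars cross 0.

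The last comparison asks whether the 10-fold step of TCIPP, from 2.5 to 25 µM, differed from that of TCEP, from 25 to 250 µM, although the concentrations themselves differ. Of the 47 genes 30 were above 0, with a median of 0.025 against -0.0032 over all genes, and the median was below 0 without TCEP 250 µM replicate 3 (-0.024), TCEP 25 µM replicate 2 (-0.020) or TCIPP 25 µM replicate 2 (-0.054). None changed (0 of 12567 genes, 0%), and 0 had an unadjusted p under 0.05 (0.716% of all genes upward and 0.939% downward). With the replicate block 0 of 47 passed, as did 0 of 12688 genes. CCNE2 (-0.81 ± 0.46, adjusted p = 0.9999), CDT1 (-0.21 ± 0.12, adjusted p = 0.9999), CLSPN (0.36 ± 0.22, adjusted p = 0.9999), RRM1 (0.20 ± 0.14, adjusted p = 0.9999) and RFC3 (0.25 ± 0.17, adjusted p = 0.9999) had the smallest p. The 95% intervals were wider here, with a median reach of 0.39 on the log2 scale to either side against 0.26 to 0.28 in the comparisons of 2 groups, and those of 37 genes lay within 1.5-fold. Of 69 other pathway genes and 58 mitosis genes, 0 passed. POLD4 (-0.86, adjusted p = 0.9999), CDKN1A (-0.18, adjusted p = 0.9999), TK2 (-0.29, adjusted p = 0.9999) and ORC2 (0.15, adjusted p = 0.9999) led the former, and KIF23, PRC1 and MYBL2, at 0.27, 0.21 and -0.20, the latter. The genes with the smallest p in each list were picked by rank, not by a passed test.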

How the data were processed

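Total RNA of 15 HepG2 cultures was sequenced as paired reads of 50 bp. Per the design text of the series, the authors' mapping and counting ran in CLC Genomics Workbench. The build is hg19 (GRCh37) per the submitters' processing notes. That text also names a quantile normalization. The deposited exon counts are whole numbers of reads per gene, per the file headers, and were used as they are. The RPKM values, also per the file headers the authors' own, served only for levels per length. Within each library they were proportional to counts over exon length, to within 0.0001 in 100% of values. The library total behind them was not recomputed. Date-like gene names (27) were restored by their identifiers.

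Counts (total exon reads) were analysed in R 4.3.3 with edgeR 4.0.16: filterByExpr, TMM scaling, glmQLFit and glmQLFTest on all 15 libraries, and Benjamini-Hochberg adjustment over 12567 genes, at 0.05. CPM is scaled by a library's total exon reads, without TMM. A p rests on the spread between separately handled cultures of one line, 3 per group, estimated jointly over all groups of a fit. With the replicate block it rests on the spread left once replicate number is taken out. Without the block that pairing is ignored. Limits of 3 reads cover counting error only. Within-pair differences used log2 CPM with a prior count of 2. The code was tested on simulated data. Alternatives were limma-voom (limma 3.58.1), DESeq2 1.42.0, no filter, unique reads, the replicate block and each library left out. Tables and figures used Python 3.11.15, pandas 2.3.3, scipy 1.17.1 and matplotlib 3.10.9.

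The 47 members and all gene lists were chosen with earlier results of these data known. Named genes were PCNA, MCM2, CDC6, CDT1, E2F1, CCNE1, CCNE2, RRM2, TYMS and TK1 throughout, the 8 members with the smallest p in each comparison with DMSO, and the 5 in each other comparison. Deviations of same-numbered libraries from their group means correlated at 0.130 to 0.337 in all 6 pairs of treated groups. Groups were taken as paired where every such correlation was above 0.1, as in these 6 (replicate block, 12 treated libraries). With DMSO the correlations were 0.0164 to 0.158, all above 0, and 0 of 4 group pairs met that criterion. Libraries with different numbers correlated at -0.258 to 0.0363 between treated groups and at -0.192 to 0.0772 with DMSO. The labels do not say what a replicate number marks. Some genes of the other lists are not reported here.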

Additional observations from a re-analysis of the deposited data

How the results depend on the processing

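The count of members that passed was 0 in every comparison of the edgeR fit without pairs, with DESeq2 and with limma-voom without the block. Without the low-count filter it was 1 for TCEP at 25 µM against DMSO (UHRF1, adjusted p = 0.0109) and 3 for TCIPP against TCEP at 25 µM (MCM5, PCNA and UHRF1). In the same order, 618 and 756 of all genes passed without that filter. The labels do not say whether DMSO libraries share more than a number with the treated ones. With the replicate block in all 15 libraries, 1 member passed for TCEP at 25 µM against DMSO (UHRF1, adjusted p = 0.0436), 2 for TCIPP at 2.5 µM against DMSO (CDT1, 0.0308, and RFC1, 0.0370) and 3 for TCIPP against TCEP at 25 µM (MCM4, MCM5 and UHRF1). In the same order, 1037, 941 and 1100 of 12567 genes passed in that fit. Over the 3 DMSO libraries, each set against the 4 treated groups, the own number correlated best in 9 of 12 cases. Leaving out 1 library at a time, the counts without the block ran from 0 to 1 for TCIPP at 2.5 µM against DMSO (RFC1 without DMSO replicate 2). They also ran from 0 to 1 for TCIPP against TCEP at 25 µM (UHRF1 without TCIPP 25 µM replicate 2, -0.72, adjusted p = 0.0445). In the fits that called RFC1 and UHRF1, 307 and 208 of all genes passed, against 12 and 5 with all libraries. With each library left out in turn, the medians of the 47 log2 fold changes ran from 0.072 to 0.15 for TCEP at 25 µM against DMSO. They ran from -0.13 to -0.0016 for TCIPP at 25 µM against DMSO. For the steps of TCEP and TCIPP they were -0.16 to -0.037 and -0.15 to -0.0053, and for TCIPP against TCEP at 25 µM -0.25 to -0.12.

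The alternatives with the treated libraries alone were chosen after seeing the data. With the block in the 12 treated libraries the counts were 9 for TCIPP against TCEP at 25 µM and 3 for TCIPP at 25 against 2.5 µM. Of 12688 genes, 16.4% and 7.47% passed there. Limma-voom with that block gave 8 and 3, where 2094 and 921 of all genes passed. Unique reads with it gave 9 and 3, where 2279 and 1081 of all genes passed. DUT did not pass with unique reads (adjusted p = 0.0567), so those 9 genes are not the same set. The block changed no other call. Leaving out 1 library at a time with that block, the counts ran from 0 to 1 for the TCEP step and from 0 to 2 for the TCIPP step. They ran from 3 to 7 for TCIPP against TCEP. In the same order, 210 to 533, 429 to 760 and 991 to 1902 of all genes passed in those fits. No member changed direction in a called result. Over all genes, the calls for TCIPP against TCEP at 25 µM numbered 5, and 334 with DESeq2, 756 without the filter, 1100 with the block and 2084 with the treated block. For TCEP at 25 µM against DMSO they numbered 0, 138, 618 and 1037 under the first 4 of these, and for TCIPP at 2.5 µM against DMSO 12, 237, 553 and 941. The cause was not tested. At 3 libraries a group, the median 95% interval reached 0.26 to 0.28 on the log2 scale to either side in comparisons of 2 groups.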
